A study of Homo sapiens with 9 samples.

Results

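Follicular lymphoma, a cancer of germinal centre B cells, often carries mutations in genes that modify histones or move nucleosomes. Here 10 such genes were followed by their RNA level in DOHH2, an established human line from a follicular lymphoma that had transformed to a more aggressive disease: EZH2, EZH1, KMT2D, KMT2C, CREBBP, EP300, ARID1A, ARID1B, SMARCA4 and HDAC3. The 10 symbols were chosen for their place in the disease, with earlier results of these data known. They were matched to Ensembl identifiers, 10 of 58243 in the count files, and all 10 passed the filter that left 15163 genes for testing. Bulk RNA-seq had been made in 3 groups of 3 libraries. The first femur group was human CD20-positive DOHH2 sorted on day 19 after grafting from femurs of RAGγc mice, which lack lymphocytes of their own, and the second femur group was the same on day 40. Both were compared with DOHH2 in culture on the day of the graft, named day 0. The labels ask how the injected cells compare before and after growth in the animal. Sorting on CD20 was applied to the femur cells, after enzymatic digestion and bead depletion of mouse blood cells, and no such step is recorded for the cultured cells, so growth in bone and the handling that went with it cannot be told apart. The sources do not say whether each femur library came from its own mouse, and all libraries are of 1 line, so p-values measure the spread between these libraries. Counts per gene do not separate mutant from normal copies of a gene, and alleles were not examined.

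The genes work on a few linked marks. EZH2 and its paralog EZH1 are the catalytic subunits of Polycomb repressive complex 2 (PRC2), which methylates histone H3 at lysine K27 and silences genes, and EZH2 is the form typical of dividing germinal centre cells. KMT2D and KMT2C add a single methyl group to H3 at K4 at enhancers. CREBBP and EP300 acetylate histones at enhancers and promoters, and HDAC3, the enzyme of the NCOR/SMRT corepressor, takes acetyl groups off. SMARCA4 is an ATPase of the BAF chromatin remodelling complex, in which ARID1A and ARID1B are alternative DNA-binding subunits.

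Libraries held 21071239 to 29456271 counts. Pairs of libraries correlated at 0.993 to 0.997 within a group and at 0.960 to 0.994 between groups (Pearson, log2 of CPM + 1, across genes). Mitochondrial genes took 7.54% to 8.67% of counts at day 19 and 7.83% to 8.51% at day 40, against 4.83% to 6.07% in culture. B cell identity was checked on 6 markers, which summed to 2572 to 2805 CPM at day 19 and 2805 to 3032 CPM at day 40, against 3266 to 4121 CPM in culture. Of these, 1 rose (PAX5, 0.71) and 4 fell at day 19, among them MS4A1, the gene of the CD20 used for the sort, with a log2 fold change of -1.38 at day 19 and -0.77 at day 40. Among all tested genes 26.3% rose and 26.5% fell at day 19. Markers of other cells were low. The 8 stromal markers summed to 4.97 to 7.54 CPM at day 19 and 4.34 to 5.29 CPM at day 40, against 0.698 to 1.32 CPM in culture, and 5 of the 8 were at 0 in all 9 libraries. PDGFRB carried this sum, with 90, 142 and 117 counts at day 19 and 87, 114 and 82 counts at day 40, against 1, 2 and 0 counts in culture. The 4 erythroid markers summed to at most 0.164 CPM, with 3 of 4 at 0. Endothelial markers (5, of which 3 were at 0 throughout) summed to 1.61 to 3.12 CPM at day 19 and 3.28 to 4.24 CPM at day 40, against 4.42 to 7.60 CPM in culture. Myeloid markers (6, of which 2 were at 0 throughout) summed to 4.98 to 6.29 CPM at day 19 and 2.87 to 5.69 CPM at day 40, against 2.63 to 5.00 CPM in culture. T and NK cell markers (5) summed to 1.14 to 1.77 CPM at day 19 and 1.15 to 1.94 CPM at day 40, against 2.71 to 3.90 CPM in culture. Plasma cell markers (4) summed to 97.0 to 102 CPM at day 19 and 103 to 122 CPM at day 40, against 125 to 170.1 CPM in culture. Nearly all of that was XBP1, while SDC1 had 8, 13 and 11 counts at day 19 and 13, 10 and 4 counts at day 40, against none in culture, and TNFRSF17 fell by 2.54 at day 19 and by 1.59 at day 40 on the log2 scale. The part of these shifts in the results was not tested. CPM values, counts scaled for library size, use library sizes adjusted by TMM. In bulk RNA a smaller share of cells expressing a gene and less RNA per cell cannot be told apart.

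One library stood apart for these genes, the second culture replicate. Against the mean of the other culture libraries it held 65.6% of the KMT2C level, 66.5% of KMT2D, 70.7% of EZH1, 71.3% of EP300, 76.0% of ARID1A and 77.0% of CREBBP. It held 88.0% of SMARCA4 and 89.2% of ARID1B, and was slightly above the others for EZH2 (108%) and HDAC3 (111%). Genes with long transcripts were low in the same library as a class. The median deviation of genes with a longest transcript of at least 8 kb (1039 genes), less that of genes under 2 kb (4321 genes), was -0.23 on the log2 scale in this library, while it lay between -0.02 and 0.10 in the other 8 libraries. Values without it are given for the 10 genes where it moves them.

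Of the 10 genes, 5 were higher in femur than in culture on both days, and none was called lower. EZH1 and KMT2D moved most, by 1.63- and 1.62-fold at day 19, and CREBBP, EP300 and ARID1B by 1.21- to 1.32-fold. EZH2, SMARCA4, HDAC3, KMT2C and ARID1A did not pass the test on either day. At day 19, 5 of 10 rose and 0 fell, against 52.8% of all tested genes called (26.3% higher, 26.5% lower). At day 40, 5 of 10 rose and 0 fell, against 46.6% of all tested genes called, 23.3% higher and 23.3% lower. The share of these 10 genes called in either direction thus lay near the background, and among the 3052 genes with a mean CPM in their range it was 63.3% at day 19 and 57.1% at day 40. Their median log2 fold change was 0.23 at day 19 and 0.25 at day 40, beside 0.01 and 0.01 over all tested genes. Both comparisons use the same culture libraries, so the counts of the days are not independent of each other. Calls in the text are from edgeR's quasi-likelihood F-test, two-sided, with a Benjamini-Hochberg adjusted p under 0.05 over all 15163 genes.

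**Figure D1:**
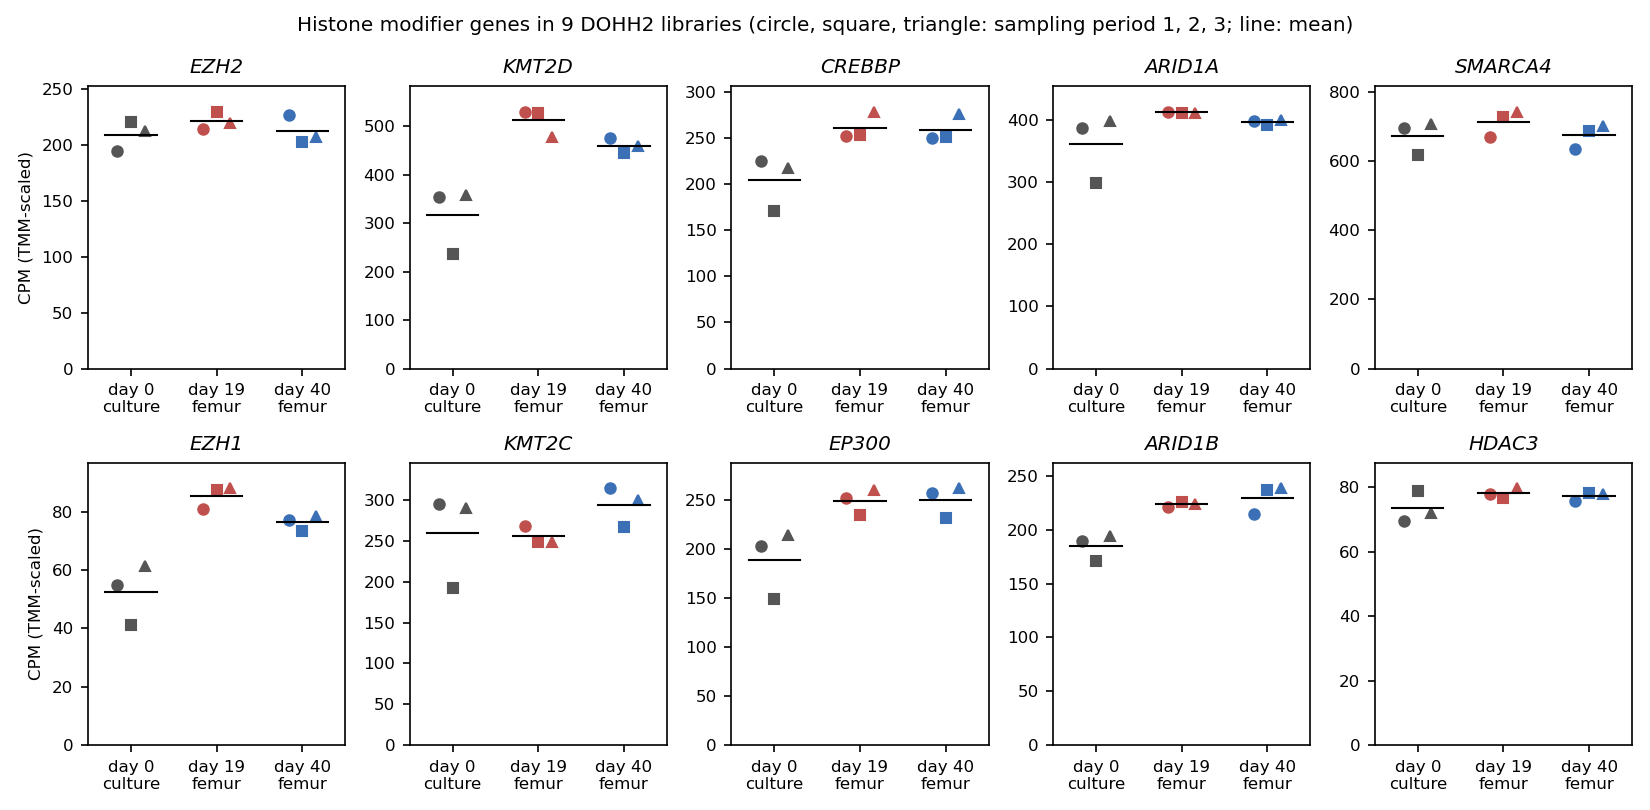
Level of each of the 10 genes in TMM-scaled CPM (y axes from 0) in the 3 groups (x axes, by day), 1 point per library, with shape giving the sampling period and a line at the group mean. EZH1 and KMT2D have all 6 femur libraries above all 3 culture libraries, while the points of EZH2 overlap. Of all tested genes, 61.5% had no overlap with culture at day 19 and 54.8% at day 40. The second culture library (square) is the lowest of its group for 8 of the 10 genes.

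Of the methyltransferases of H3 K27, EZH1 rose and EZH2 did not pass the test. EZH2 (hg38 chr7:148807383-148884321, minus strand) had 214, 230 and 220 CPM at day 19 and 227, 203 and 207 CPM at day 40, against 195, 220 and 212 CPM in culture. The femur and culture libraries overlapped on both days. The log2 fold change was 0.08 ± 0.07 (SE) at day 19, adjusted p = 0.337, with a 95% interval of -0.07 to 0.23. At day 40 it was 0.02, adjusted p = 0.813, with an interval of -0.13 to 0.17, so a change of the size seen for EZH1 lies outside both intervals. EZH1 (chr17:42700275-42745049, minus strand), typical of resting cells, had 81.1, 87.4 and 88.1 CPM at day 19 and 77.4, 73.4 and 78.5 CPM at day 40, against 54.8, 41.1 and 61.4 CPM in culture. Every femur library was above every culture library. Over all tested genes, the 2 groups did not overlap for 61.5% at day 19 and 54.8% at day 40. EZH1 rose with a log2 fold change of 0.71 ± 0.11 at day 19 (adjusted p = 2.51e-04) and 0.54 at day 40 (adjusted p = 0.00206). Leaving out the second culture library gave 0.55 and 0.38, both still called.

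Within each library the balance between the paralogs could be read with no scaling between libraries. Counts per kb of exon of EZH2 were 4.08, 4.06 and 3.86 times those of EZH1 at day 19 and 4.54, 4.27 and 4.08 times at day 40, against 5.50, 8.28 and 5.34 times in culture. EZH2 thus stayed the more abundant paralog per length in every library, by a smaller factor in femur. The log2 ratio differed by -0.59 between the 6 femur and 3 culture libraries (exact two-sided permutation test over 84 splits, p = 0.0119, the smallest the design allows, adjusted p = 0.0357 over 6 pairs). With that culture library of 8.28 left out, the difference was -0.39 and the adjusted p 0.0535. This test exchanges all 9 libraries freely, although the libraries of a sampling period may be related. A test added after the data were seen exchanged libraries only within the periods. Its 27 arrangements gave p = 0.0370 (exact, the smallest they allow) and an adjusted p of 0.111, so the ratio was not called. Over 6 pairs an adjusted p under 0.05 needs nearly all pairs at that smallest p. This exchange could therefore hardly call any single ratio.

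The start regions of these paralogs are shown because one passed the test and the other did not. The 250 bases before the start are given on the gene's strand from RefSeq (GRCh38.p14), with matches to the E2F or CCAAT motif on either strand in capitals:
EZH2 promoter (chr7:148884292-148884541, minus strand): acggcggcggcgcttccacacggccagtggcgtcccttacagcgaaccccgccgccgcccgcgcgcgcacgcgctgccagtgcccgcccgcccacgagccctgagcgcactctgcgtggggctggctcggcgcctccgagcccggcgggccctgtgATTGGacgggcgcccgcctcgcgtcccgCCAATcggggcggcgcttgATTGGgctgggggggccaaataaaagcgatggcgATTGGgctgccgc
EZH1 promoter (chr17:42745041-42745290, minus strand): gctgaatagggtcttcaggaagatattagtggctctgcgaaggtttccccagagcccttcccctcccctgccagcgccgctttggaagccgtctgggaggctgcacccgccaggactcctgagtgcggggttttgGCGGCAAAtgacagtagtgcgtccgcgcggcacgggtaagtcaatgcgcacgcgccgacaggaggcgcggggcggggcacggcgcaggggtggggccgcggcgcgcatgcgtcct
The EZH2 window held 4 matches to the CCAAT box (CCAAT or its reverse complement) and none to the E2F motif, searched as TTTCCCGC, TTTCGCGC, TTTGCCGC or TTTGGCGC on both strands. The EZH1 window held 1 E2F match, GCGGCAAA beginning 115 bases before the start, which is TTTGCCGC on the other strand, and no CCAAT box. It held 26 CpG dinucleotides, against 38 in the EZH2 window and a median of 11 over 35116 windows of this length. Over those windows, 2.79% held an E2F match and 32.0% a CCAAT box. All 10 genes had a window, and the other CCAAT box among them was 1 before ARID1B. The YY1 motif (AAGATGGC, in 1.36% of windows) and an ETS motif (CCGGAAGT, in 3.42%) were in none of the 10. The windows follow RefSeq starts, which can lie away from the gene positions given here. That of KMT2D begins at 49060795, beyond the gene end of 49059774. That of ARID1A begins at 26695765, inside the gene, which starts at 26693236. The motifs were chosen after the expression values were seen, and a match is only a match of letters.

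Among the methyltransferases of H3 K4, KMT2D rose and KMT2C did not pass the test. KMT2D (chr12:49018975-49059774, minus strand), among the genes mutated most often in follicular lymphoma, had 531, 529 and 478 CPM at day 19 and 476, 445 and 459 CPM at day 40, against 355, 237 and 359 CPM in culture. The femur and culture groups did not overlap, as for 61.5% of all tested genes at day 19 and 54.8% at day 40. Its log2 fold change was 0.69 ± 0.13 at day 19 (adjusted p = 6.39e-04, 95% interval 0.42 to 0.97) and 0.54 ± 0.13 at day 40 (adjusted p = 0.00435). With the second culture library left out it was 0.51 at day 19 and 0.35 at day 40, both still called. KMT2C (chr7:152134922-152436005, minus strand) had 269, 249 and 249 CPM at day 19 and 315, 267 and 300.4 CPM at day 40, against 295, 192 and 291 CPM in culture. The culture libraries span the values of the femur libraries at day 19. The log2 fold change was -0.02 at day 19 (adjusted p = 0.907) and 0.18 at day 40 (adjusted p = 0.277). In the fit with no second culture library KMT2C was called lower at day 19 (-0.20, adjusted p = 0.0269), and at day 40 its value was -0.01. KMT2C reads are uncertain in another way: it shares 2592 bases at 95% identity or more with BAGE2, which was assigned 1 count in all 9 libraries, and how multiply mapped reads were counted is not given in the sources used here.

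Per kb of exon, KMT2D was 1.94, 2.08 and 1.89 times KMT2C at day 19 and 1.48 to 1.63 times at day 40, against 1.18, 1.21 and 1.21 times in culture. The second culture library, where both genes were low, was like its group in this ratio. The log2 ratio was 0.53 higher in femur (exact permutation test, p = 0.0238, adjusted p = 0.0357), and 0.54 higher without that library (adjusted p = 0.0535). Exchange within the sampling periods gave an adjusted p of 0.111 in the exact test.

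The acetyltransferases moved together. CREBBP (chr16:3725054-3880726, minus strand) had 253, 253 and 279 CPM at day 19 and 250.1, 252 and 277 CPM at day 40, against 225, 171 and 218 CPM in culture. EP300 (chr22:41091786-41180079, plus strand) had 252, 235 and 260.4 CPM at day 19 and 257, 232 and 263 CPM at day 40, against 203, 149 and 215 CPM in culture. For both genes every femur library was above every culture library. Groups without overlap made up 61.5% of all tested genes at day 19 and 54.8% at day 40. CREBBP rose by a log2 fold change of 0.35 ± 0.10 at day 19 (adjusted p = 0.00804) and 0.34 at day 40 (adjusted p = 0.0115). EP300 rose by 0.40 ± 0.11 at day 19 (adjusted p = 0.0105) and 0.41 at day 40 (adjusted p = 0.0109). These sizes rest in part on the second culture library, without which CREBBP was at 0.23 and 0.22 and EP300 at 0.24 and 0.25 for days 19 and 40, all still called. The ratio of CREBBP to EP300 differed by -0.06 on the log2 scale between femur and culture (exact permutation test, p = 0.286, adjusted p = 0.286).

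The deacetylase HDAC3 did not pass the test on either day. HDAC3 (chr5:141620876-141636870, minus strand) had 77.8, 76.6 and 79.7 CPM at day 19 and 75.6, 78.0 and 77.9 CPM at day 40, against 69.5, 78.8 and 71.9 CPM in culture. The log2 fold change was 0.09 (95% interval -0.05 to 0.23, adjusted p = 0.255) at day 19 and 0.07 (-0.06 to 0.21, adjusted p = 0.364) at day 40. It passed the test as higher when libraries were scaled by total counts alone, at 0.18 (adjusted p = 0.0237) and 0.16 (adjusted p = 0.0462). Its related deacetylase HDAC1, of the NuRD and SIN3 complexes, fell to 238 ± 6.85 CPM at day 19 and 276 ± 8.20 CPM at day 40, against 400 ± 34.3 CPM in culture (mean ± SD, n = 3 each, adjusted p = 3.19e-06 and 7.81e-05). The ratio of HDAC3 to HDAC1 per kb of exon was 0.277, 0.285 and 0.281 at day 19 and 0.235, 0.249 and 0.234 at day 40, against 0.153, 0.154 and 0.165 in culture. The log2 ratio was 0.72 higher in femur (exact permutation test, p = 0.0119, adjusted p = 0.0357). It was 0.71 higher without the second culture library (adjusted p = 0.0535), and exchange within periods gave an adjusted p of 0.111.

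Of the 3 BAF genes among the 10, ARID1B rose and ARID1A and SMARCA4 did not pass the test. ARID1B (chr6:156776020-157210779, plus strand) had 221, 226 and 224 CPM at day 19 and 215, 237 and 239 CPM at day 40, against 189.6, 171 and 194 CPM in culture. The groups did not overlap, and the log2 fold change was 0.27 ± 0.07 at day 19 (adjusted p = 0.00456) and 0.31 at day 40 (adjusted p = 0.00248). Leaving out any 1 library gave 0.21 to 0.29 at day 19 and 0.25 to 0.35 at day 40, all still called. ARID1A (chr1:26693236-26782110, plus strand) had 414, 411 and 412 CPM at day 19 and 398, 393 and 400 CPM at day 40, against 388, 299 and 399 CPM in culture. Its day 19 libraries lay above the culture libraries. Groups without overlap were seen for 61.5% of all genes at day 19 and 54.8% at day 40. The log2 fold change of 0.19 missed the threshold (adjusted p = 0.105). At day 40 it was 0.13 (adjusted p = 0.255). These were 0.06 and 0.00 without the second culture library, and without the third culture library ARID1A was called higher at day 19 (0.25, adjusted p = 0.0454). SMARCA4 (chr19:10960825-11079426, plus strand) had 669.8, 727 and 744 CPM at day 19 and 635, 688 and 702 CPM at day 40, against 695, 617 and 709 CPM in culture. Its groups overlapped, with a log2 fold change of 0.08 (95% interval -0.08 to 0.25, adjusted p = 0.384) at day 19 and 0.00 (-0.16 to 0.17, adjusted p = 0.978) at day 40. Fits that leave out 1 library gave 0.0161 to 0.128 for SMARCA4 at day 19 and -0.0677 to 0.0370 at day 40, with none called. The alternative ATPase SMARCA2 averaged 105 ± 3.27 CPM at day 19 and 124 ± 4.06 CPM at day 40, against 143 ± 11.5 CPM in culture. It fell by 0.44 on the log2 scale at day 19 (adjusted p = 1.81e-04) and by 0.20 at day 40 (adjusted p = 0.0300). The day 40 call was lost without the first or the third culture library or the first or the second day 40 library, and with total-count scaling (-0.12, adjusted p = 0.256). Per kb of exon SMARCA4 was 7.29, 8.43 and 8.39 times SMARCA2 at day 19 and 6.20, 6.59 and 6.43 times at day 40, against 5.52, 5.63 and 5.58 times in culture. The log2 ratio was higher by 0.53 at day 19 and by 0.20 at day 40, and by 0.36 over both days (exact permutation test, p = 0.0238, adjusted p = 0.0357). This last was 0.37 without the second culture library (adjusted p = 0.0857), and exchange within periods gave an adjusted p of 0.111. SMARCA2, like HDAC1, was paired with earlier results of these data known. The ratio of ARID1A to ARID1B differed by -0.12 (p = 0.119 in the same exact test, adjusted p = 0.143).

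**Figure D2:**
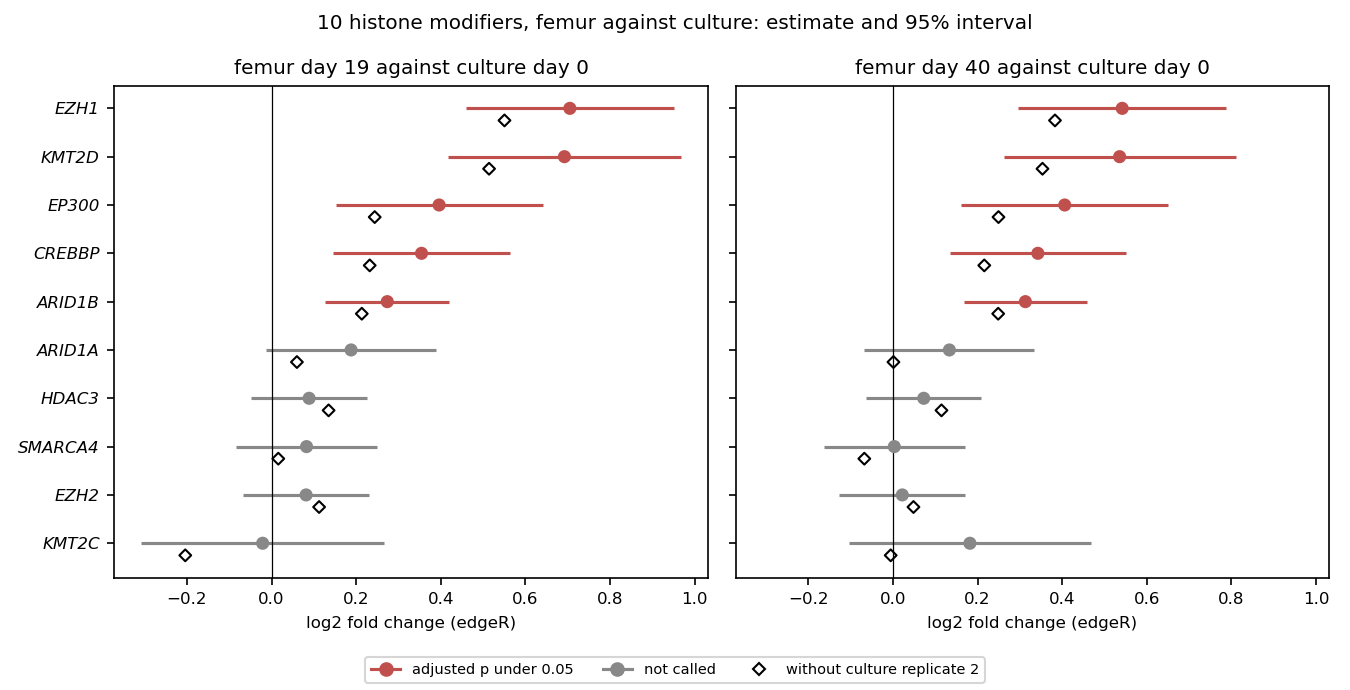
Log2 fold change of the 10 genes (x axis) in femur against culture at day 19 (left) and day 40 (right), with points and bars for the edgeR estimate and its 95% interval, red where the adjusted p is under 0.05. Open diamonds leave out the second culture library. EZH1 and KMT2D lead on both days at 0.54 to 0.71, and the diamonds of the 5 called genes lie nearer to 0 than the points.

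**Figure D3:**
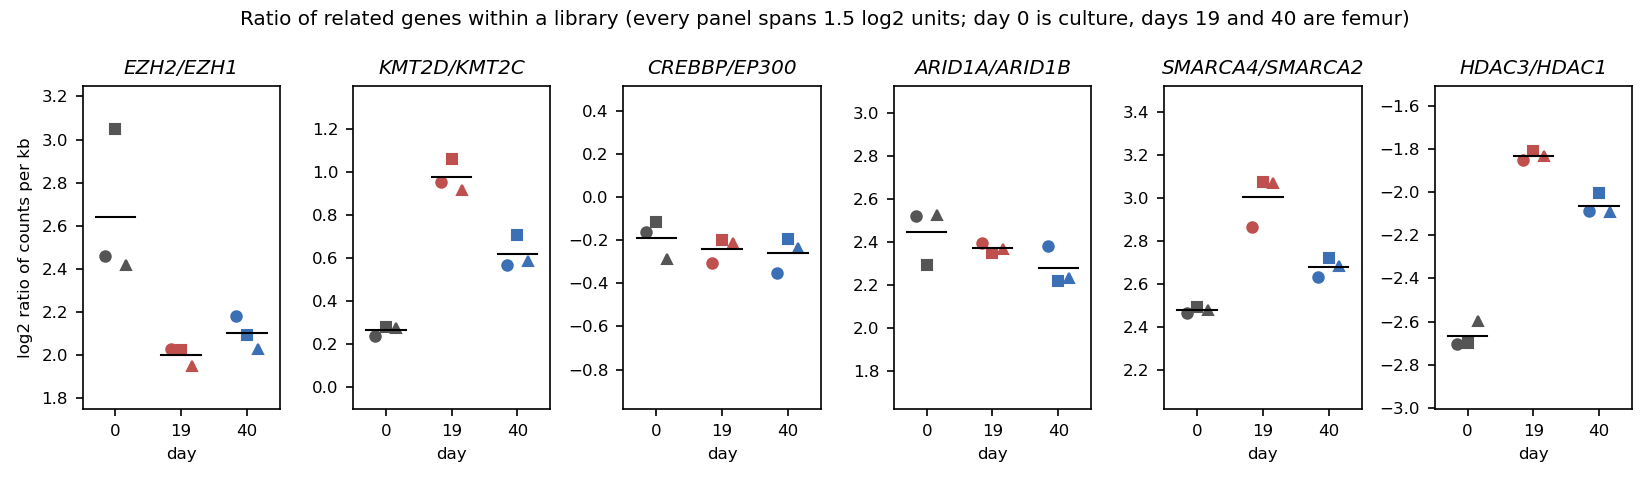
Log2 ratio of counts per kb of exon between related genes within a library (y axes, each spanning the same log2 range), by day (x axes), with 1 point per library and a line at the group mean. EZH2 to EZH1 is lower in all 6 femur libraries than in the 3 culture libraries, and KMT2D to KMT2C and HDAC3 to HDAC1 are higher, while CREBBP to EP300 overlaps.

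The sampling periods, read from dates in the sample titles, could be set side by side, since each holds 1 library of every group. KMT2D in femur at day 19 was above culture by 0.58, 1.15 and 0.41 on the log2 scale in periods 1, 2 and 3, and at day 40 by 0.42, 0.90 and 0.35. EZH1 was above by 0.57, 1.09 and 0.52 at day 19 and by 0.50, 0.84 and 0.35 at day 40. CREBBP was above by 0.17, 0.57 and 0.35 at day 19, and EP300 by 0.31, 0.65 and 0.28. The direction was the same in all 3 periods for each of these genes and largest in period 2, which holds the second culture library. KMT2C was below culture in periods 1 and 3 (-0.13 and -0.23) and above it in period 2 (0.38) at day 19.

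Of the 5 genes that rose, 4 have a longest transcript of at least 8 kb. KMT2C and ARID1A, which did not pass the test, are in that class too. Of the 15163 tested genes, 1039 are in it. Over the 10 genes it ran from 1.959 kb for HDAC3, 3.641 kb for EZH2 and 4.623 kb for EZH1 to 16.862 kb for KMT2C and 19.419 kb for KMT2D. Over all genes, 36.0% of those with a longest transcript of at least 8 kb rose at day 19 and 21.8% fell, against 21.2% and 26.0% of those under 2 kb. At day 40, 35.6% of the long class rose and 16.9% fell. These shares include the second culture library, in which the long class was low. The long class had a median log2 fold change of 0.10 at day 19 and 0.13 at day 40. EZH1, the other gene that rose, is of 4.623 kb. The part of transcript length in these results was not tested.

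Between the femur days none of the 10 genes was called by edgeR, against 4.68% of all genes (3.23% higher at day 40, 1.45% lower) and 7.31% of genes in their CPM range. None of the 10 reached an unadjusted p under 0.05 and none was called by DESeq2 or limma voom. The median log2 difference between day 40 and day 19 was -0.04. KMT2D was at 460 ± 15.6 CPM at day 40 and 513 ± 29.6 CPM at day 19 (mean ± SD, n = 3 each), with a log2 difference of -0.16 and a 95% interval of -0.43 to 0.12. EZH1 was at 76.4 ± 2.69 CPM at day 40 and 85.5 ± 3.88 CPM at day 19, a difference of -0.16 (-0.41 to 0.08). KMT2C was at 294 ± 24.3 CPM at day 40 and 256 ± 11.5 CPM at day 19, a difference of 0.20 (-0.08 to 0.49). The libraries of the days did not overlap for KMT2D, EZH1 and ARID1A, 3 of 10 genes, against 26.6% of all genes. In the chromatin lists described next, PCGF2 of PRC1 (0.98, adjusted p = 0.0323), NCOA3 (0.42, adjusted p = 0.0140) and HDAC7 (0.31, adjusted p = 0.0108) were called higher at day 40 than at day 19, and each call was lost without at least 2 of the single libraries. PCGF2 averaged 1.94 CPM at day 19 and 3.83 CPM at day 40, below its culture mean of 5.58 CPM. It had 55, 46 and 30 counts at day 19, and overlaps CISD3 on the opposite strand.

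Levels can be compared between genes only per length. Per kb of exon, EZH2 was the most abundant of the 10 at 48.9 ± 1.76 CPM per kb at day 19 and 46.9 ± 2.89 at day 40, against 46.2 ± 2.86 in culture (mean ± SD, n = 3 each). SMARCA4 came next at 45.2 at day 19 and 42.8 at day 40, against 42.7 in culture, and its culture libraries overlapped those of EZH2. ARID1A followed at 25.9 at day 19, against 22.7 in culture. In culture HDAC3 (15.9), KMT2D (15.5), EP300 (15.1) and CREBBP (13.2) each overlapped the next in order. KMT2C (12.9) overlapped CREBBP and was separate from EZH1 (7.50), and ARID1B (4.14) came last. KMT2D reached 25.02 CPM per kb at day 19, where it overlapped ARID1A and stood apart from EP300 (19.9). EZH1 reached 12.2, where it overlapped KMT2C (12.7). The order depends on the length used: with the longest transcript in place of all exons SMARCA4 led in every group at 116 to 123 CPM per kb, and ARID1B, whose exons sum to 44.677 kb, had 17.1 to 21.3.

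Other annotated genes that share exon bases with the 10 genes had at most 304 counts each over the 9 libraries. The spread among replicates also differed. In culture the coefficient of variation reached 22.4% for KMT2C, while in femur it was at most 8.25% for any of the 10 genes. ARID1A varied least at day 19, at 412 ± 1.29 CPM (SD, n = 3), against 362 ± 54.9 CPM in culture. For both genes the second culture library was the low one, with KMT2C at 295, 192 and 291 CPM and ARID1A at 388, 299 and 399 CPM.

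The partners of EZH2 in PRC2 are set beside all genes, of which 52.8% were called at day 19 and 46.6% at day 40. Of 10 partners tested, 1 rose and 6 fell at day 19, and 1 rose and 4 fell at day 40, with a list median of -0.18 at day 19 and -0.15 at day 40. At day 19, 5 fell without the second culture library and 3 with total-count scaling, which left 2 at day 40. JARID2, which guides PRC2 to its targets, rose to 26.0 ± 0.347 CPM at day 19 and 29.7 ± 1.17 CPM at day 40, against 18.6 ± 0.818 CPM in culture (adjusted p = 2.27e-04 and 2.44e-05). EPOP, a partner of the PRC2.1 form, fell by 0.45 on the log2 scale at day 19 and by 0.46 at day 40 (adjusted p = 4.17e-05 and 4.99e-05). RBBP4, a histone-binding subunit shared with other complexes, fell by 0.35 and by 0.34. PRC1, the complex that reads the H3 K27 mark, had 8 of 16 subunits higher and 3 lower on each day, beside the same background. It had 7 higher on each day, with 3 lower at day 19 and 2 at day 40, when the second culture library was left out. Its CBX2 rose to 131 ± 3.57 CPM at day 19 and 106 ± 12.7 CPM at day 40, against 70.7 ± 4.96 CPM in culture (adjusted p = 4.53e-06 and 2.05e-04), and PHC1, which overlaps M6PR, rose by 0.55 at day 19. Both demethylases of H3 K27 passed the test at day 40, KDM6B at 0.33 (adjusted p = 0.0241) and KDM6A at 0.20 (adjusted p = 0.0486), and neither at day 19. KDM6B was at 0.19 without the second culture library and was not called without the first or the third day 40 library, and KDM6A was not called when any 1 of the 9 libraries was left out.

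The other genes of the H3 K4 machinery moved in both directions. Of 14 COMPASS methyltransferases and subunits, 9 rose and 2 fell at day 19, against 26.3% of all genes higher and 26.5% lower, and 7 rose and 2 fell at day 40, against 23.3% each way. The list medians were 0.31 and 0.17. KMT2B, a promoter H3 K4 methyltransferase, rose to 227 ± 4.92 CPM at day 19 and 208 ± 8.27 CPM at day 40, against 139 ± 24.2 CPM in culture (adjusted p = 1.13e-04 and 6.64e-04). NCOA6, a subunit of the KMT2C and KMT2D complexes, rose by 0.48 and 0.37, with an overlapping neighbour, PIGU, on the same strand. PAGR1, of the same complexes, was among the 2 that fell, by 0.91 at day 19 (adjusted p = 2.70e-04), and it overlaps AC009133.1. Of the 14, 9 rose at day 19 and 5 at day 40 without the second culture library. Of 4 tested demethylases of H3 K4, 1 rose on each day, KDM1B at day 19 (0.40, adjusted p = 0.00302) and KDM5A at day 40 (0.26, adjusted p = 0.0210). KDM5A, which overlaps CCDC77, was at 0.15 without the second culture library and was not called without the first or the third day 40 library. KDM5B, the fifth of that list, had 1 count in all 9 libraries. Among 14 methyltransferases of other histone residues, 7 rose and 1 fell at day 19 and 5 rose and 1 fell at day 40. SETDB1, an H3 K9 methyltransferase that overlaps CERS2, rose by 0.52 and 0.46, and PRMT5, an arginine methyltransferase, fell by 0.43 and by 0.39.

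Acetylation genes moved both ways, and their counts are set beside 52.8% of all genes called at day 19 and 46.6% at day 40. Of 10 other acetyltransferases 3 rose and 4 fell at day 19 and 3 rose and 3 fell at day 40, with medians of 0.10 and 0.07. Those that fell at day 19 were 3, and those that rose at day 40 were 2, when the second culture library was left out. NCOA3, a nuclear receptor coactivator, had the largest called fall in these chromatin lists, to 120 ± 3.74 CPM at day 19 and 161 ± 18.5 CPM at day 40, against 348 ± 24.7 CPM in culture (log2 fold change -1.54, adjusted p = 3.58e-08, and -1.11, adjusted p = 9.57e-07). KAT7, a histone H3 and H4 acetyltransferase that overlaps FAM117A on the opposite strand, rose by 0.44 and 0.33. Of 9 other deacetylases tested, 4 rose and 3 fell on each day. HDAC9, a class II deacetylase, averaged 62.0 CPM at day 19 and 58.6 CPM at day 40, against 29.4 CPM in culture, and rose on both days (adjusted p = 2.43e-06 and 7.61e-06), while HDAC7 of the same class, which overlaps SLC48A1, fell by 0.73 at day 19 and by 0.42 at day 40. In the NCOR/SMRT complex that holds HDAC3, 3 of 5 rose and 2 fell at day 19, and 3 rose and 1 fell at day 40 (2 and 1 without the second culture library). Its scaffold NCOR1 rose to 214 ± 6.73 CPM at day 19 and 212 ± 8.58 CPM at day 40, against 165 ± 13.9 CPM in culture, with PIGL overlapping on the opposite strand. TBL1X, a subunit of the same complex, fell by 0.69 at day 19 and by 0.62 at day 40.

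The remaining BAF and PBAF subunits were divided. Of 24, 9 rose and 6 fell at day 19, where 52.8% of all genes were called, and 7 rose and 5 fell at day 40, where 46.6% were. The medians were 0.11 and -0.02 (0.20 and 0.06 with total-count scaling). Leaving out the second culture library gave 7 rising and 6 falling at day 19 and 5 rising and 6 falling at day 40. SS18L1 rose by 0.67 and 0.61 (adjusted p = 3.28e-05 and 1.05e-04), and DPF1 fell by 0.93 and by 0.97 (adjusted p = 8.19e-05 and 8.51e-05), both known best as subunits of the neuronal form of the complex. BRD7, of the PBAF form, rose by 0.38 and 0.31 and overlaps ADCY7 on the opposite strand. With total-count scaling the split was 10 rising and 4 falling at day 19, and 8 and 2 at day 40. Libraries scaled so had a median log2 fold change of 0.10 over all genes on both days, and calls of 4652 higher and 3216 lower at day 19, beside 3994 and 4013 with TMM. At day 40 they were 4155 higher and 2650 lower, beside 3527 and 3538.

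**Figure D4:**
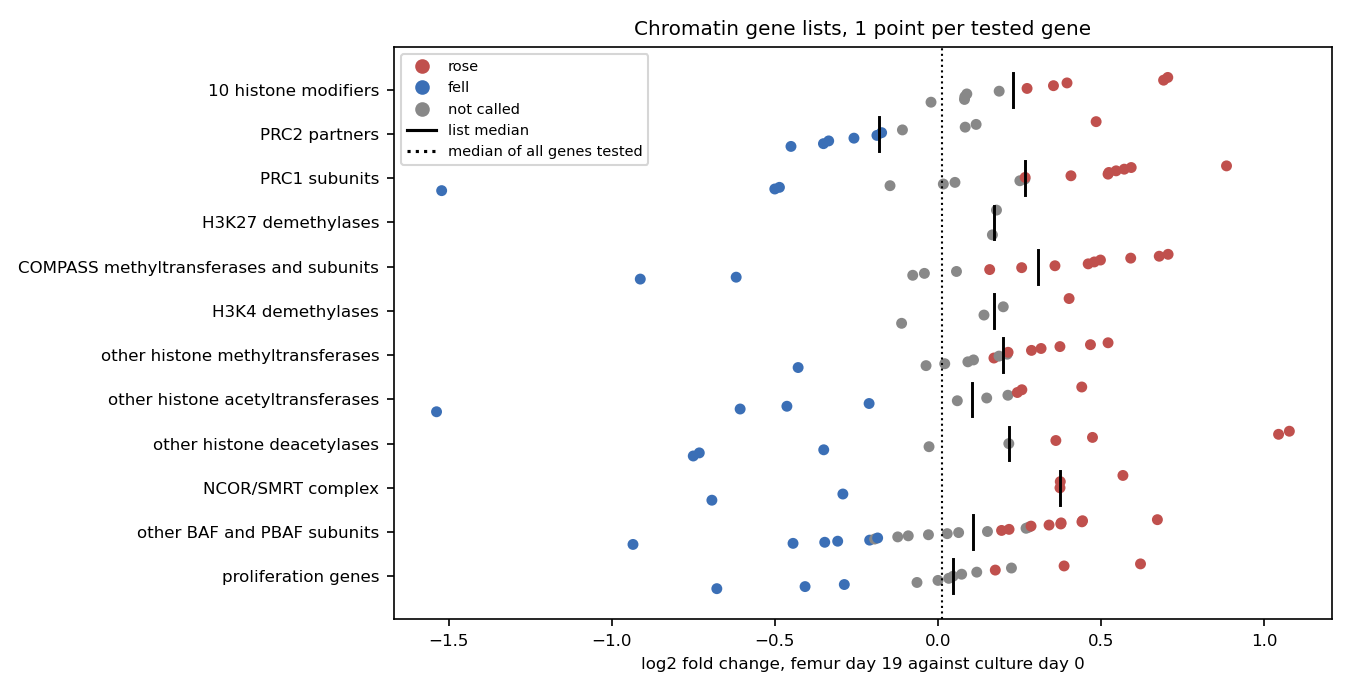
Log2 fold change at day 19 against culture (x axis) of every tested gene in the chromatin lists and in a list of proliferation genes (rows), red where it rose, blue where it fell and grey where it was not called, with a bar at the list median and a dotted line at the median of all genes. PRC2 partners lie mostly left of 0 (median -0.18) and COMPASS genes mostly right (0.31).

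EZH2 is known to hold down CDKN1A, PRDM1 and IRF4 in germinal centre B cells. CDKN1A, the cell cycle inhibitor p21, fell to 14.6, 12.6 and 17.2 CPM at day 19 and 36.3, 25.5 and 23.4 CPM at day 40, against 56.5, 63.6 and 59.6 CPM in culture (log2 fold change -2.01, adjusted p = 5.87e-07, and -1.07, adjusted p = 1.12e-04). It was higher at day 40 than at day 19 (0.94, adjusted p = 0.00448), and this call held without any 1 library. IRF4, a driver of plasma cell fate, had 137, 182 and 75 counts at day 19 and 126, 231 and 94 counts at day 40, against 5, 0 and 0 counts in culture, and was called higher on both days (adjusted p = 1.27e-05 and 2.38e-05). PRDM1, its partner in that fate, stayed low at 0.440, 0.792 and 0.380 CPM at day 19 and 1.59, 0.805 and 0.451 CPM at day 40, against 0.127, 0.319 and 0.194 CPM in culture, and was called at day 40 (adjusted p = 0.00641). CDKN2A and CDKN2B, the inhibitors at a classic PRC2 target locus, had no counts in any of the 9 libraries.

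CREBBP is known to sustain MHC class II genes in these lymphomas. Of 10 such genes 1 rose and 4 fell at day 19, and 3 rose and 1 fell at day 40, with medians of -0.22 and 0.33. Over all genes 26.3% rose and 26.5% fell at day 19, and 23.3% went each way at day 40. CIITA, the class II transactivator, rose to 143 ± 8.59 CPM at day 19 and 147 ± 13.4 CPM at day 40, against 67.1 ± 2.77 CPM in culture (adjusted p = 2.84e-07 and 3.61e-07). HLA-DMA, which helps load peptide, was at 35.4 ± 1.49 CPM at day 19, against 62.0 ± 9.77 CPM in culture (adjusted p = 1.55e-04), and overlaps BRD2. Leaving out the second culture library, 1 rose and 3 fell at day 19 and 6 rose and 0 fell at day 40. More were thus called higher at day 40 without that library than with it. Total-count scaling, which keeps all libraries, gave the same counts on both days. Of the class II genes named by their p, HLA-DQB1 (0.67, adjusted p = 0.0108) and HLA-DPB1 (0.54, adjusted p = 0.0155) rose at day 40, calls that were lost without the second day 40 library and, for HLA-DPB1, also without the first or the third culture library, and HLA-DMB fell by 0.59 at day 19 (adjusted p = 0.00153). HLA genes are near copies of each other, and their counts are uncertain for that reason. Of the KMT2D targets, TNFRSF14, a restraint on B cells that is itself often mutated in follicular lymphoma, rose to 29.4 ± 3.67 CPM at day 19 and 34.0 ± 7.79 CPM at day 40, against 8.41 ± 1.30 CPM in culture (adjusted p = 4.07e-06 and 2.68e-06), and it overlaps TNFRSF14-AS1. TNFAIP3, an inhibitor of NF-kB signalling, had 19.9, 2.92 and 1.52 CPM at day 40, against 0.0849, 0.546 and 0.116 CPM in culture. Its log2 fold change at day 40 was 5.05 (adjusted p = 0.00136), and 3.18 without the first day 40 library. SOCS3 was below the filter.

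Proliferation genes, with which EZH2 levels usually go, were close to balance in their calls. Of 13, 3 rose and 3 fell at day 19 and 2 rose and 3 fell at day 40, with medians of 0.05 and -0.02 (0.13 and 0.06 with total-count scaling). With that scaling 4 rose and 2 fell at day 19, and 3 rose and 2 fell at day 40. The 13 genes summed to 5744 to 5846 CPM at day 19 and 5471 to 5577 CPM at day 40, against 5270 to 5596 CPM in culture. Among all tested genes 52.8% were called at day 19 and 46.6% at day 40. E2F1 rose to 248 ± 21.5 CPM at day 19 and 205 ± 8.65 CPM at day 40, against 161 ± 12.3 CPM in culture (adjusted p = 3.78e-05 and 0.00349). CDK1 fell to 133 ± 7.33 CPM at day 19 and 154 ± 5.28 CPM at day 40, against 213 ± 21.2 CPM in culture (adjusted p = 1.69e-05 and 4.57e-04).

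Some genes followed the same course over the 9 libraries as EZH1 and KMT2C, the genes with the highest and lowest log2 fold change at day 19. Likeness was the Euclidean distance between the log2 CPM (+ 1) of 2 genes, each centred on its own mean, among 9952 genes with a mean of at least 5 CPM. Nearest to EZH1 were DDX11, a DNA helicase, at 0.166, MYO19, a mitochondrial myosin, at 0.173, and DYNC1LI2, a dynein subunit, at 0.174. Nearest to KMT2C were LCOR, a corepressor, at 0.159, RANBP2, a nuclear pore protein, at 0.170, and EXOC8, of the exocyst, at 0.196. DDX11 and RANBP2 have near-identical relatives in the genome, so their counts are uncertain. These distances share the libraries and their depth, and carry no test.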

How the data were processed

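Whole-number read counts per gene, not normalized, were deposited by the authors for 9 DOHH2 libraries, 3 per group. FastQC 0.11.5, STAR 2.5.2a with hg38, featureCounts 1.4.6 and DESeq2 1.40.1 are named, per the submitters' processing notes. Not given in the sources used here are the annotation, strand setting, trimming and treatment of multiply mapped or mouse reads, so reads of genes that overlap on opposite strands cannot be told apart. Symbols and positions came from GENCODE release 29, which named 57980 of 58243 identifiers.

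Counts were analysed in R 4.3.3 with edgeR 4.0.16: filterByExpr (minimum count 10, total 15), TMM scaling, 1 coefficient per group over all 9 libraries, and the quasi-likelihood F-test with Benjamini-Hochberg adjustment at 0.05. DESeq2 1.42.0 and limma 3.58.1 (voom) were alternatives, as were RLE and total-count scaling, no filter, fits of 2 groups, a block for sampling period and leaving out each library. Ratios of related genes were compared by an exact permutation test in scipy 1.17.1, with exchange within sampling periods added later. The code was tested on simulated counts. Depth was 21071239 to 29456271 counts.

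The genes and lists were chosen with earlier results of these data known. Genes named from each list are taken from up to 3 called genes with the smallest p per comparison, or the 1 with the smallest p where none was called. KMT2C and EZH1, the ends of the day 19 range, were given their 3 nearest genes. HDAC1 and SMARCA2 entered as paralogs, and SOCS3, CDKN2A, CDKN2B and KDM5B, chosen after their values were seen, as list genes below the filter. The result of 1 listed gene is not reported here.

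Replicate numbers follow accession order, and the dates in the titles put the same numbers in 1 sampling period. By those dates the day 19 cells were taken 18, 19 and 19 days after the culture library of their period and the day 40 cells 11, 26 and 39 days after it, so some pairs of a period cannot come from 1 graft. Deviations from the group means correlated at 0.11, 0.25 and 0.20 between day 40 and culture and at 0.16, 0.17 and 0.36 between the femur days. This was treated as possible pairing only, since pairs of libraries from different periods were not compared. The period block changed no call among the 10 genes.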

Additional observations from a re-analysis of the deposited data

How the results depend on the processing

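The 5 genes called on each day were called under every alternative run. A sixth was called at some settings, as given beside HDAC3, KMT2C and ARID1A. KMT2C had no stable direction. At day 19 it was -0.02, but 0.0578 with total-count scaling, 0.00598 with voom and 3.47e-04 with the period block, and -0.204 to 0.0806 when 1 library was left out. At day 40 leaving out 1 library gave -0.00541 to 0.285 for KMT2C, -0.0379 to 0.0484 for EZH2 and -0.0677 to 0.0370 for SMARCA4, and with no filter EZH2 was at -0.00200 and SMARCA4 at -0.0204. Between the femur days the same fits gave -0.0592 to 0.0361 for CREBBP, -0.0308 to 0.0567 for EP300 and -0.0294 to 0.00140 for HDAC3.

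Ratios between related genes kept their direction without any 1 library: -0.70 to -0.39 for EZH2 to EZH1, 0.48 to 0.58 for KMT2D to KMT2C, 0.32 to 0.40 for SMARCA4 to SMARCA2 and 0.69 to 0.76 for HDAC3 to HDAC1. Their adjusted p then reached 0.0714 to 0.107, in a smaller design. With a replicate block, chosen after seeing the data, that exchanges libraries only within a sampling period, the values stay -0.59, 0.53, 0.36 and 0.72 and the adjusted p of each is 0.111 by the exact test over 27 arrangements. The number of all genes called between the femur days, 710, was 1324 with no filter, 1100 with only these groups and 966 with the period block. It was 280 to 1193 when 1 library was left out, lowest without the third day 19 library and highest without the second culture library. The cause was not tested. Deviations correlated at 0.04, -0.07 and 0.16 between day 19 and culture, again with no pairs of different periods beside them. Reads are not independent molecules, and depth limits mainly the low genes such as PRDM1.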
